A study of Caenorhabditis elegans with 7 samples.

Results

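Histone-modifying enzymes and heterochromatin factors set the chemical marks on nucleosomes that divide the genome into expressed and silent parts. Methyltransferases with a SET domain add methyl groups to histone lysines, LSD1-type and JmjC-domain demethylases remove them, acetyltransferases and deacetylases (HDACs) do the same for acetyl groups, and HP1 proteins bind methylated lysine 9 of histone H3 (H3K9). In C. elegans these enzymes are known above all for the germline, where H3K4, H3K9, H3K27 and H3K36 methylation pass on or erase a memory of gene expression between generations, and several of them are known to affect lifespan or fertility over generations when lost. The genes described here were taken by name from the deposited table. They comprise every gene named set, jmjd, jhdm, utx, hda, hpl, lsd, mes or mys followed by a number, together with spr-5, met-1, met-2, rbr-2, ash-2 and wdr-5.1. This gave 67 of the 46778 genes in the table, and 55 of them had a value of at least 0.5 FPKM (reads for the length of the gene, scaled for library size) in at least 3 of the 7 libraries. Across the genome 13194 genes passed that filter and were tested.

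RNAseq was performed on whole L4 animals, the last larval stage, of N2, the wild-type laboratory strain. WT Late animals came from an N2 population in which only the progeny laid on day 3 of parental adulthood were carried forward, for a minimum of 50 generations, and 4 libraries were made from them. WT animals were unselected N2 controls of the same stage, with 3 libraries. Both groups carried no engineered allele and were grown from synchronized L1 larvae on plates with streptomycin and OP50 bacteria, so the selection history is the only difference the labels give. WT Late is described as a single selected population, and separately selected lines are not stated, so the p-values below measure the spread between libraries and may not hold the spread between lines. In whole animals fewer cells of a type and less RNA per cell cannot be told apart.

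Reads on genes lay between 17553893 and 20961698 per library. Levels are given as rescaled FPKM, which is the deposited FPKM after division by 1 median-of-ratios factor per library (0.848 to 1.38), and fold changes are differences of log2(rescaled FPKM + 0.5), which understates the change of low genes. A pair of WT Late libraries stood apart. WT Late 3 had a read on 18490 genes, against 11069 to 14544 in the other WT Late libraries and 15723 to 16297 in the WT libraries, and ribosomal protein genes took 13.2% of its reads, against 24.1% to 35.6% in the other 6 libraries. WT Late 2 was the library with 11069 genes. That is fewer than the 13194 tested, so tested genes at 0 reads there were not particular to the chromatin genes. Their share over all tested genes was not counted. Of the 55 chromatin genes tested, 8 had 0 reads in WT Late 2, 1 had 0 reads in WT Late 4 and none had 0 reads in any other library. Those 8 genes (jhdm-1, jmjd-1.1, jmjd-4, met-1, mys-1, mys-4, set-22 and set-23) had 4 to 530 reads in the WT libraries, and why they were at 0 in WT Late 2 was not tested. Chromatin genes given with library values also have their log2 fold change without WT Late 2 and without WT Late 3.

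As a group the chromatin genes were expressed at low levels. Their median mean level was 2.2 rescaled FPKM in WT Late and 2.93 in WT, while the median over all tested genes was 4.73 in WT Late and 4.86 in WT. The level exceeded 10 rescaled FPKM for 6 genes in WT Late and 5 in WT, and lay under 2 for 25 genes in WT Late and 20 in WT. In WT Late the order of levels was led by set-17, jmjd-5, hpl-2, hda-1, set-30 and wdr-5.1, and in WT by hda-1, set-17, hpl-2, wdr-5.1 and set-30. The first of these, set-17, is an H3K4 methyltransferase known for its part in expression of spermatogenesis genes, hpl-2 is an HP1 homolog and hda-1 is the main class I deacetylase. At the other end stood jmjd-4, with a mean of 0.314 rescaled FPKM in WT Late and 0.519 in WT. Neighbours in the order were not tested against each other. The ranges of mean ± SD overlapped for 54 of 54 neighbouring pairs in WT Late and for 54 of 54 in WT. Such overlap is not a test, and neighbours in a ranked list lie close by construction, so their order was left undecided. The spread between libraries was wider in WT Late, with a median coefficient of variation of 48.5% against 28.9% in WT, and the values over all tested genes were 53.1% in WT Late and 30.6% in WT. In WT Late 10 chromatin genes had a coefficient of variation above 100%, and in WT there were 0.

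**Figure D1:**
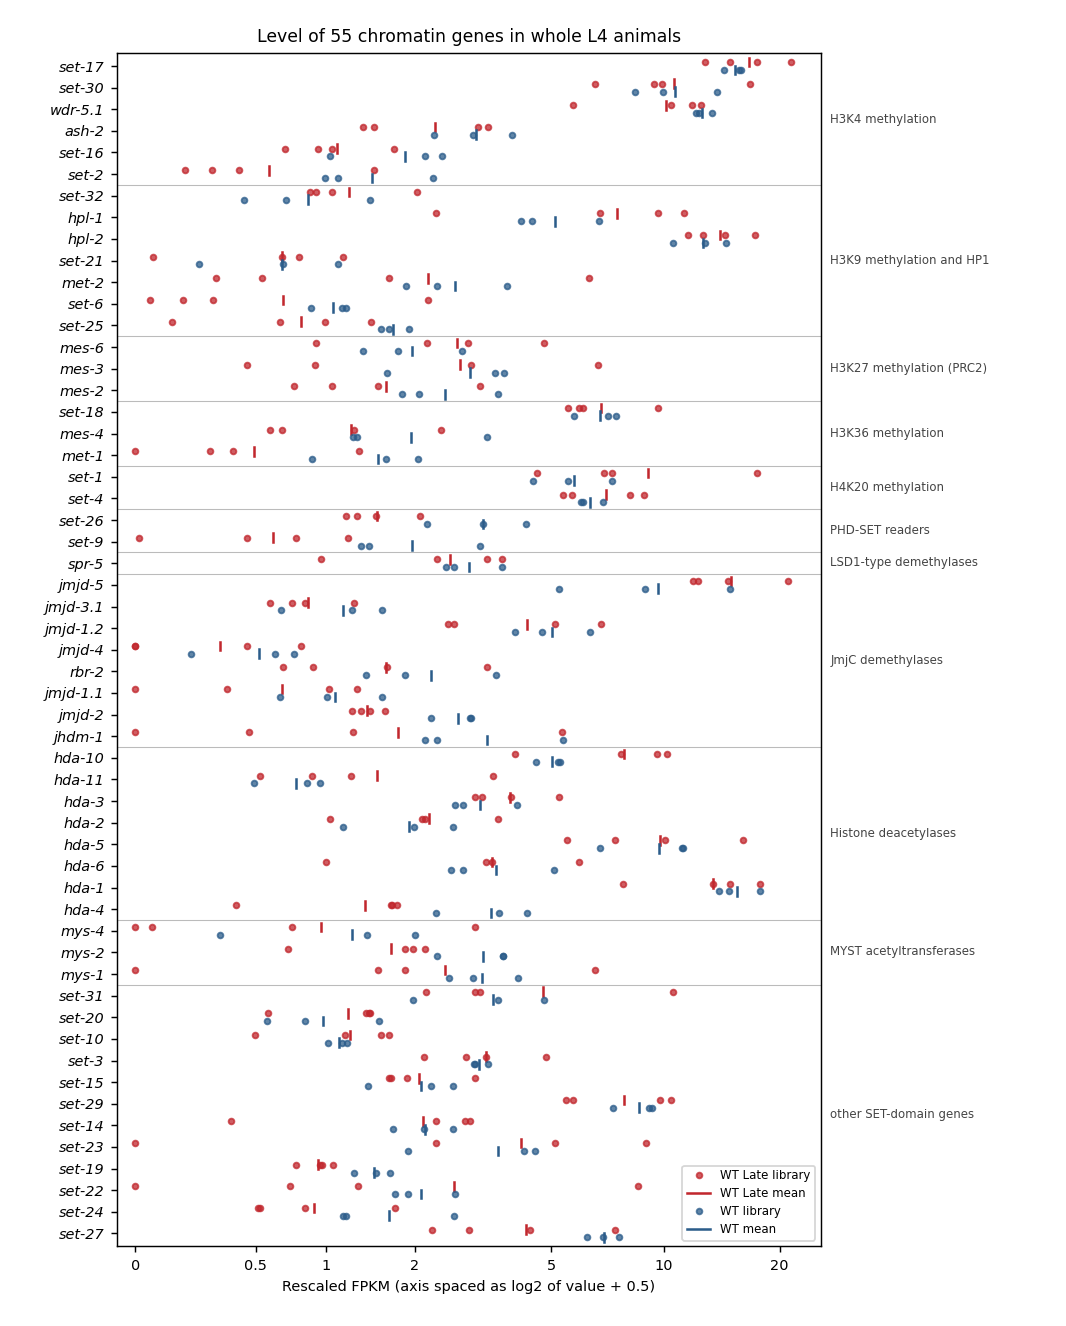
Rescaled FPKM of the 55 chromatin genes, grouped by role, on an axis spaced as log2 of the value plus 0.5. Points are libraries (4 WT Late in red, 3 WT in blue) and vertical ticks are group means. Levels run up to a mean of 16.7 in WT Late and 15.5 in WT, the points of WT Late are spread more widely, and points at 0 occur in WT Late alone.

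The comparison of WT Late with WT asks whether day 3 selection left a difference in expression of the chromatin machinery. None of the 55 genes passed an adjusted p of 0.05 in limma, while 0.849% of the 13194 tested genes did (112 genes, with 88 or 0.667% higher and 24 or 0.182% lower in WT Late). At an unadjusted p under 0.05 limma gave 2 chromatin genes, set-9 and hda-4, both lower in WT Late, which is 3.64% against 8.89% of all tested genes (4.08% higher and 4.81% lower). The lowest adjusted p among the chromatin genes was 0.540 (set-9, limma), and log2 fold changes ran from -1.25 for jhdm-1 to 0.69 for jmjd-5. The median 95% interval of a gene reached 1.05 on either side of its log2 fold change, and in this fit the smallest absolute log2 fold change of a called gene anywhere in the genome was 1.63. Single genes were also set against an exact permutation test of library labels, which is two-sided and unadjusted and can go no lower than p = 0.0286 with 4 libraries against 3. The median log2 fold change of the 55 genes was -0.29, against -0.13 over all tested genes, and 39 of them (70.9%) lay below 0, against 58.4% of all tested genes.

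**Figure D2:**
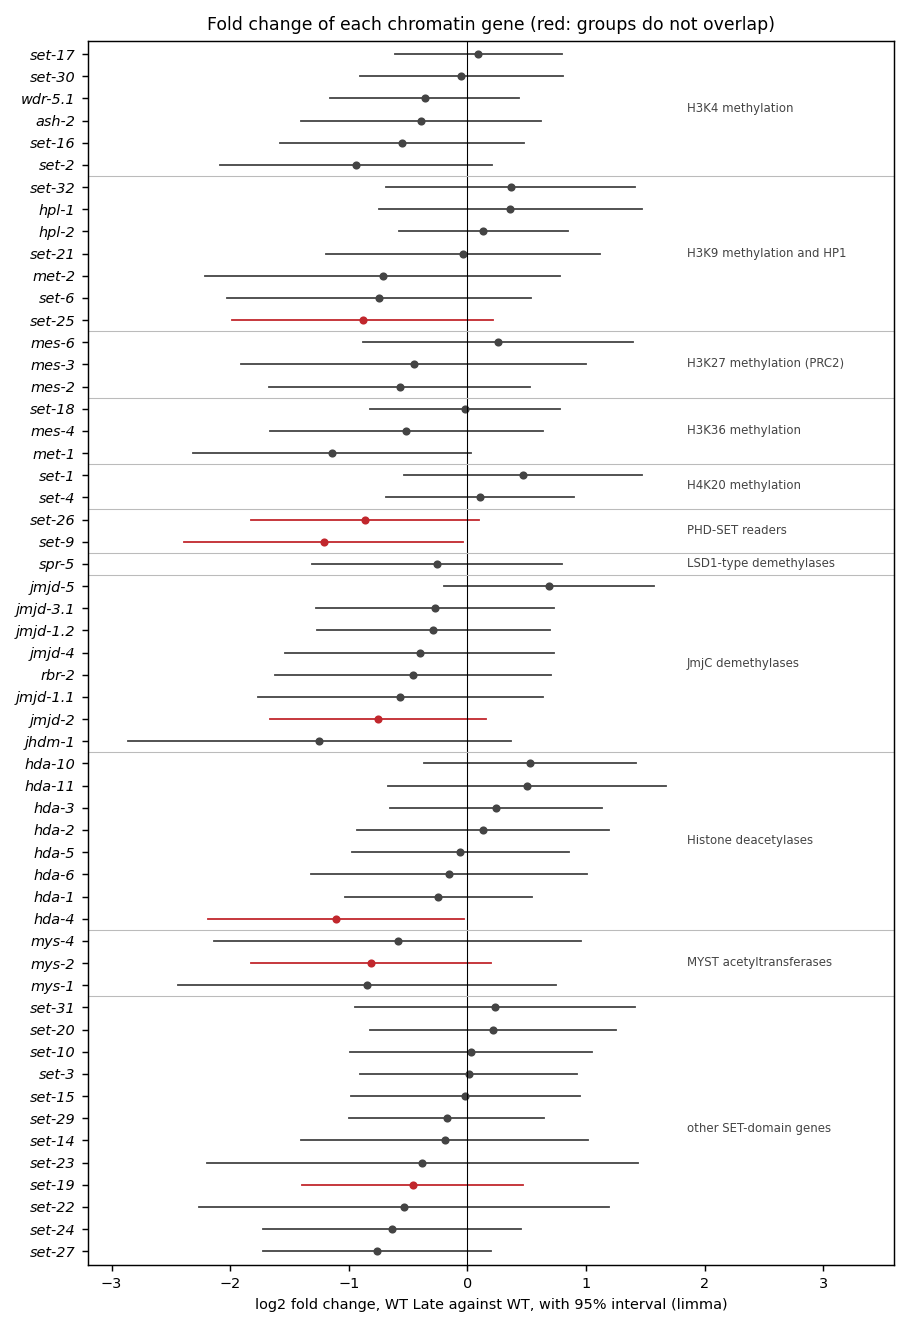
log2 fold change of WT Late against WT for each of the 55 chromatin genes, grouped by role. Points are limma estimates and lines their 95% intervals, with red for genes whose WT Late and WT libraries do not overlap. Most points lie left of 0, the median being -0.29, and the interval leaves out 0 for set-9 and hda-4 alone, neither of which passed the adjusted threshold.

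For 7 genes (12.7%) every WT Late library lay below every WT library, against 5.09% of all tested genes, and for 0 genes every WT Late library lay above, against 4.67%. The 7 genes were set-9, set-26, set-25, hda-4, jmjd-2, mys-2 and set-19. This count depended on the scaling. With FPKM as deposited there were 3 lower genes (hda-4, jmjd-2 and set-26, 5.45% against 4.39% of all tested genes), after quantile normalization there were 6 (hda-4, set-9, set-25, met-1, set-27 and wdr-5.1, 10.9% against 6.28%), and hda-4 was the 1 gene shared by the lists of all 3 scalings. With either of those scalings 1 gene (1.82%) lay higher without overlap, hda-10 as deposited (against 5.34% of all tested genes) and hda-3 after quantile normalization (against 5.32%).

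The PHD-SET pair gave the lowest median among the groups with more than 1 gene in the main fit. This order did not hold with the length trend of the libraries removed (an alternative described further on). There set-9 lay at -0.35 and set-26 at -0.02, and the MYST genes mys-1, mys-2 and mys-4 lay lower, at -0.82, -0.66 and -0.39. The separation of groups given below also depended on scaling. set-9 overlapped with FPKM as deposited and set-26 after quantile normalization. SET-9 and SET-26 are closely related proteins with a PHD finger and a SET domain, known from worms for binding H3K4me3-rich chromatin and, for SET-26, for limiting lifespan. set-9 (chromosome IV, 4307896 to 4317140 as deposited) had 0.449, 0.0116, 1.2 and 0.761 rescaled FPKM in WT Late 1 to 4, against 1.42, 3.14 and 1.34 in WT 1 to 3. The groups did not overlap, WT Late 2 was near 0 and WT 2 was the highest library. limma gave set-9 a log2 fold change of -1.21 (95% interval -2.39 to -0.04) at an adjusted p of 0.540, and the exact permutation p was 0.0571. set-9 stood at -0.88 without WT Late 2 and at -1.43 without WT Late 3. Its sister gene set-26 (chromosome IV, 16646791 to 16655883) had 1.18, 1.5, 1.29 and 2.08 in WT Late, against 2.18, 4.25 and 3.21 in WT. Here too the groups stood apart, with WT 2 again highest. For set-26 the log2 fold change was -0.86 (95% interval -1.83 to 0.10), which limma placed at an adjusted p of 0.617 and the exact permutation test at p = 0.0571. set-26 stood at -0.85 without WT Late 2 and at -0.81 without WT Late 3. The counting was not stated to separate near-identical copies, so reads of the pair may be shared and the values of each gene are uncertain.

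Among the H3K4 methylation genes, enzymes and complex subunits together, 5 of 6 had log2 fold changes below 0, with a median of -0.37, and none passed the test. With the length trend of the libraries removed (an alternative described further on), 2 of the 6 lay below 0. There set-2 lay at -0.07, wdr-5.1 at -0.39, set-16 at 0.53, ash-2 at 0.06, set-30 at 0.05 and set-17 at 0.01. set-2 encodes the SET1 enzyme of the COMPASS complex, which places most H3K4 trimethylation at promoters. Its levels were 0.166, 0.278, 1.48 and 0.406 rescaled FPKM in WT Late and 1.1, 2.28 and 0.989 in WT. WT Late 1, 2 and 4 lay below all WT libraries and WT Late 3 within the WT range. In limma set-2 had a log2 fold change of -0.94 (95% interval -2.08 to 0.21), with an adjusted p of 0.655 and an exact permutation p of 0.114. set-2 stood at -0.83 without WT Late 2 and at -1.25 without WT Late 3. ash-2, a core COMPASS subunit, had 1.36, 1.48, 3.11 and 3.33 in WT Late and 2.3, 3.87 and 3.00 in WT. WT Late 1 and 2 were low while WT Late 3 and 4 lay among the WT libraries. limma gave ash-2 a log2 fold change of -0.39 (95% interval -1.4 to 0.62) at an adjusted p of 0.851, and the exact permutation p was 0.343. ash-2 stood at -0.24 without WT Late 2 and at -0.53 without WT Late 3. wdr-5.1, the scaffold subunit that joins the complex to its enzyme, was far more abundant, with 12.5, 5.72, 10.5 and 11.8 in WT Late and 12.4, 13.4 and 12.1 in WT. WT Late 2 was the low library and WT Late 1 lay within the WT range. For wdr-5.1 the log2 fold change was -0.36 (95% interval -1.16 to 0.44), which limma placed at an adjusted p of 0.825 and the exact permutation test at p = 0.229. wdr-5.1 stood at -0.11 without WT Late 2 and at -0.39 without WT Late 3. Of the rest, set-16, the MLL3/4-type enzyme, had a log2 fold change of -0.55, set-30 of -0.05 and set-17 of 0.09.

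The H3K9 group was mixed, with 4 of 7 genes below 0, a median of -0.04 and none past the test (set-21 lay at 0.23 after quantile normalization and at 0.12 with the length trend removed). MET-2 makes mono- and dimethylated H3K9, and SET-25 trimethylates it. The genes of both enzymes had log2 fold changes below 0, while the HP1 genes lay above 0. The deposited lengths were 4116 bases for met-2 and 2730 for set-25, against 802 for hpl-1 and 1220 for hpl-2. With the length trend removed met-2 lay at -0.04, set-25 at -0.50, hpl-1 at 0.27 and hpl-2 at 0.08. set-25 (chromosome III, 13283892 to 13293088) had 0.117, 0.649, 1.45 and 0.989 rescaled FPKM in WT Late, against 1.66, 1.92 and 1.56 in WT. The groups did not overlap, and the 3 WT libraries lay close together. In limma set-25 had a log2 fold change of -0.88 (95% interval -1.98 to 0.22), with an adjusted p of 0.665 and an exact permutation p of 0.0571. set-25 stood at -0.86 without WT Late 2 and at -1.1 without WT Late 3. met-2 had 0.298, 1.66, 6.32 and 0.539 in WT Late and 1.88, 3.77 and 2.35 in WT. WT Late 3 exceeded every WT library while the other 3 WT Late libraries lay below them all, so 1 library set the group mean. limma gave met-2 a log2 fold change of -0.72 (95% interval -2.21 to 0.78) at an adjusted p of 0.808, and the exact permutation p was 0.400. met-2 stood at -0.79 without WT Late 2 and at -1.32 without WT Late 3. Without both WT Late 2 and WT Late 3 the log2 fold change of met-2 was -1.68 and its adjusted p in limma 0.0341, when 6.77% of tested genes were called. That fit rests on WT Late 1 and WT Late 4 and was chosen after the values had been seen.

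set-32, a putative H3K9 methyltransferase needed to start inherited RNAi silencing, had 0.870, 0.919, 2.03 and 1.05 rescaled FPKM in WT Late and 0.435, 1.43 and 0.690 in WT. The ranges overlapped, with WT Late 3 the highest library. For set-32 the log2 fold change was 0.37 (95% interval -0.69 to 1.42), which limma placed at an adjusted p of 0.868 and the exact permutation test at p = 0.371. set-32 stood at 0.45 without WT Late 2 and at 0.16 without WT Late 3. hpl-1, an HP1 homolog, had 9.69, 6.78, 2.32 and 11.3 in WT Late and 6.76, 4.12 and 4.43 in WT. WT Late 1, 2 and 4 lay above the highest WT library, WT Late 2 only just, and WT Late 3 below the lowest. In limma hpl-1 had a log2 fold change of 0.36 (95% interval -0.75 to 1.47), with an adjusted p of 0.876 and an exact permutation p of 0.600. hpl-1 stood at 0.36 without WT Late 2 and at 0.80 without WT Late 3. hpl-2, the HP1 homolog tied to germline silencing and fertility, had 17.3, 11.6, 14.4 and 12.6 in WT Late and 14.5, 12.8 and 10.6 in WT. Its libraries overlapped throughout. limma gave hpl-2 a log2 fold change of 0.13 (95% interval -0.58 to 0.85) at an adjusted p of 0.934, and the exact permutation p was 0.514. hpl-2 stood at 0.23 without WT Late 2 and at 0.11 without WT Late 3. set-21 had a log2 fold change of -0.04 and set-6 of -0.74.

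MES-2, MES-3 and MES-6 form PRC2, the complex that methylates H3K27 and keeps the X chromosomes silent in the germline. None of the 3 genes passed the test. With the length trend removed mes-2 lay at -0.26, mes-3 at 0.01 and mes-6 at 0.31. mes-2, the catalytic subunit, had 0.751, 1.53, 3.15 and 1.05 rescaled FPKM in WT Late and 1.83, 3.55 and 2.07 in WT. WT Late 3 lay within the WT range and the other WT Late libraries below all of WT. For mes-2 the log2 fold change was -0.57 (95% interval -1.67 to 0.53), which limma placed at an adjusted p of 0.790 and the exact permutation test at p = 0.229. mes-2 stood at -0.59 without WT Late 2 and at -0.86 without WT Late 3. mes-3, a worm-specific subunit, had 0.449, 2.96, 6.69 and 0.908 in WT Late and 1.63, 3.48 and 3.69 in WT. WT Late 1 and 4 were below the WT libraries and WT Late 3 above them. In limma mes-3 had a log2 fold change of -0.45 (95% interval -1.91 to 1.00), with an adjusted p of 0.879 and an exact permutation p of 0.571. mes-3 stood at -0.63 without WT Late 2 and at -0.97 without WT Late 3. mes-6, the EED homolog, had 2.18, 2.89, 4.76 and 0.917 in WT Late and 1.77, 2.78 and 1.36 in WT, a wide overlap with WT Late 3 again highest. limma gave mes-6 a log2 fold change of 0.26 (95% interval -0.88 to 1.4) at an adjusted p of 0.917, and the exact permutation p was 0.629. mes-6 stood at 0.18 without WT Late 2 and at -0.03 without WT Late 3. It overlaps another gene on the same strand, C09G4.4, in the annotation, so its reads may be shared. Summed over the 3 subunits, WT Late held 3.38, 7.38, 14.6 and 2.87 rescaled FPKM, against 5.24, 9.82 and 7.12 in WT, so the highest and the lowest values of PRC2 were both in WT Late.

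All 3 H3K36 genes had log2 fold changes below 0, and none passed the test (set-18 lay at 0.07 without WT Late 2, at 0.03 without WT Late 3 and at 0.07 with the length trend removed). With that trend removed mes-4 lay at -0.04 and met-1 at -0.30. MES-4 maintains H3K36 methylation on germline genes from 1 generation to the next, and MET-1 adds it during transcription. mes-4 had 0.665, 0.588, 2.41 and 1.27 rescaled FPKM in WT Late and 1.26, 3.29 and 1.29 in WT. WT Late 1 and 2 were low, and the groups overlapped through WT Late 3 and 4. For mes-4 the log2 fold change was -0.52 (95% interval -1.67 to 0.63), which limma placed at an adjusted p of 0.825 and the exact permutation test at p = 0.371. mes-4 stood at -0.33 without WT Late 2 and at -0.79 without WT Late 3. met-1 had 0.270, 0, 1.32 and 0.380 in WT Late and 0.883, 2.06 and 1.62 in WT. WT Late 2 had 0 reads, WT Late 1 and 4 were low, and WT Late 3 lay among the WT libraries. In limma met-1 had a log2 fold change of -1.14 (95% interval -2.32 to 0.03), with an adjusted p of 0.573 and an exact permutation p of 0.0857. met-1 stood at -0.87 without WT Late 2 and at -1.46 without WT Late 3. set-18 had a log2 fold change of -0.02.

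The H4K20 pair lay above 0 and did not pass. set-1, which makes H4K20me1 and acts in dosage compensation, had 6.93, 7.32, 17.5 and 4.55 rescaled FPKM in WT Late and 7.28, 4.44 and 5.54 in WT. WT Late 3 stood above every other library by a wide gap, and the rest overlapped. limma gave set-1 a log2 fold change of 0.47 (95% interval -0.53 to 1.48) at an adjusted p of 0.813, and the exact permutation p was 0.371. set-1 stood at 0.52 without WT Late 2 and at 0.11 without WT Late 3. set-4, which adds the further methyl groups to H4K20, had 5.68, 5.39, 8.90 and 8.15 in WT Late and 6.92, 6.04 and 6.10 in WT. WT Late 1 and 2 lay below all WT libraries and WT Late 3 and 4 above them. For set-4 the log2 fold change was 0.11 (95% interval -0.68 to 0.90), which limma placed at an adjusted p of 0.955 and the exact permutation test at p = 0.600. set-4 stood at 0.23 without WT Late 2 and at -0.01 without WT Late 3.

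Among the demethylases, spr-5, an LSD1 homolog whose loss brings sterility that builds up over generations, had 0.959, 2.35, 3.63 and 3.29 rescaled FPKM in WT Late and 2.5, 3.64 and 2.64 in WT. WT Late 1 was low and the other 3 WT Late libraries lay close to WT. In limma spr-5 had a log2 fold change of -0.26 (95% interval -1.31 to 0.80), with an adjusted p of 0.909 and an exact permutation p of 0.657. spr-5 stood at -0.25 without WT Late 2 and at -0.43 without WT Late 3. With the length trend removed spr-5 lay at 0.10. Its relative lsd-1 did not pass the filter, with a highest FPKM of 0.502. Of the 8 JmjC genes tested, 7 lay below 0, with a median of -0.43, and none passed. With the length trend removed 4 of the 8 lay below 0, and rbr-2 lay at 0.36, jmjd-3.1 at 0.33 and jmjd-1.2 at 0.18. jmjd-2 (chromosome II, 14234972 to 14243603), a KDM4-type demethylase of H3K9 and H3K36, had 1.61, 1.24, 1.33 and 1.43 in WT Late, against 2.94, 2.26 and 2.95 in WT. Its 4 WT Late libraries lay close together and wholly below the 3 WT libraries. limma gave jmjd-2 a log2 fold change of -0.75 (95% interval -1.66 to 0.16) at an adjusted p of 0.653, and the exact permutation p was 0.0286. jmjd-2 stood at -0.70 without WT Late 2 and at -0.73 without WT Late 3. With FPKM as deposited its groups also stood apart, but after quantile normalization they overlapped. rbr-2, the KDM5-type H3K4 demethylase, had 0.669, 1.63, 3.29 and 0.890 in WT Late and 1.39, 3.5 and 1.87 in WT. WT Late 1 and 4 were low, and WT Late 2 and 3 lay within the WT range. For rbr-2 the log2 fold change was -0.46 (95% interval -1.63 to 0.71), which limma placed at an adjusted p of 0.848 and the exact permutation test at p = 0.400. rbr-2 stood at -0.51 without WT Late 2 and at -0.78 without WT Late 3. jmjd-3.1, an H3K27 demethylase known for stress-induced lifespan effects, had 0.589, 0.734, 1.26 and 0.833 in WT Late and 0.656, 1.58 and 1.24 in WT, overlapping. In limma jmjd-3.1 had a log2 fold change of -0.27 (95% interval -1.28 to 0.73), with an adjusted p of 0.895 and an exact permutation p of 0.314. jmjd-3.1 stood at -0.23 without WT Late 2 and at -0.40 without WT Late 3. utx-1, the other H3K27 demethylase with a known role in lifespan, did not pass the filter and reached 1.44 FPKM in WT Late 2. jhdm-1, a KDM2 homolog, had the lowest log2 fold change of all, -1.25, with levels of 0.465, 0, 5.36 and 1.25 in WT Late and 2.15, 5.37 and 2.35 in WT, so that WT Late 3 was near the highest WT library and WT Late 2 at 0. jhdm-1 stood at -0.72 without WT Late 2, at -1.87 without WT Late 3 and at -0.55 with the length trend removed. jmjd-5, linked to H3K36 demethylation, had the highest, 0.69, with 21, 14.7, 12.3 and 12.0 in WT Late and 14.9, 5.23 and 8.93 in WT. jmjd-5 stood at 0.70 without WT Late 2 and at 0.76 without WT Late 3. Between them lay jmjd-1.1 at -0.57, jmjd-4 at -0.40 and jmjd-1.2 at -0.29.

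The histone deacetylases were split, with 4 of 8 below 0 and a median of 0.04, and hda-6 lay at 0.06 after quantile normalization, 0.26 without WT Late 2 and 0.39 with the length trend removed. hda-1, the class I enzyme of the NuRD and SIN3 complexes, had 13.5, 14.9, 7.82 and 17.8 rescaled FPKM in WT Late and 14.8, 17.8 and 14 in WT. WT Late 3 was low and the other libraries overlapped. limma gave hda-1 a log2 fold change of -0.24 (95% interval -1.03 to 0.54) at an adjusted p of 0.879, and the exact permutation p was 0.571. hda-1 stood at -0.29 without WT Late 2 and at -0.01 without WT Late 3. hda-2, also class I, had 2.16, 2.11, 3.55 and 1.03 in WT Late and 1.15, 2.61 and 1.99 in WT, with overlap. For hda-2 the log2 fold change was 0.13 (95% interval -0.93 to 1.19), which limma placed at an adjusted p of 0.961 and the exact permutation test at p = 0.771. hda-2 stood at 0.13 without WT Late 2 and at -0.09 without WT Late 3. hda-3, the last class I gene, had 3.18, 3.86, 5.25 and 3.05 in WT Late and 2.80, 4.00 and 2.65 in WT. In limma hda-3 had a log2 fold change of 0.24 (95% interval -0.65 to 1.13), with an adjusted p of 0.896 and an exact permutation p of 0.343. hda-3 stood at 0.24 without WT Late 2 and at 0.09 without WT Late 3. Its groups overlapped, and after quantile normalization all its WT Late libraries lay above WT. hda-4 (chromosome X, 16729559 to 16744698), the class II enzyme that works with MEF-2 in neurons and muscle, was the gene that stood apart under all 3 scalings. It had 1.68, 0.392, 1.70 and 1.76 in WT Late, against 2.33, 3.57 and 4.27 in WT, and the mean was 1.38 ± 0.662 in WT Late (SD, n = 4) and 3.39 ± 0.981 in WT (SD, n = 3). WT Late 2 was far below the other 3 WT Late libraries, which lay close together under the lowest WT library. limma gave hda-4 a log2 fold change of -1.11 (95% interval -2.19 to -0.03) at an adjusted p of 0.545, and the exact permutation p was 0.0286. hda-4 stood at -0.77 without WT Late 2 and at -1.2 without WT Late 3. The remaining genes had log2 fold changes of 0.53 (hda-10), 0.50 (hda-11), -0.06 (hda-5) and -0.16 (hda-6).

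All 3 MYST acetyltransferase genes tested lay below 0, with a median of -0.81 and none past the test. mys-1, the TIP60 homolog, had 1.52, 0, 6.56 and 1.86 rescaled FPKM in WT Late and 2.55, 4.04 and 3.00 in WT. WT Late 2 was at 0 and WT Late 3 above every WT library, so the WT Late values enclosed those of WT. For mys-1 the log2 fold change was -0.85 (95% interval -2.44 to 0.75), which limma placed at an adjusted p of 0.788 and the exact permutation test at p = 0.486. mys-1 stood at -0.17 without WT Late 2 and at -1.42 without WT Late 3. mys-2 (chromosome I, 14118753 to 14127199), the MOF-type acetyltransferase, had 1.87, 0.708, 1.98 and 2.16 in WT Late, against 3.66, 2.34 and 3.66 in WT. The groups did not overlap, but WT Late 4 and WT 2 were close. In limma mys-2 had a log2 fold change of -0.81 (95% interval -1.83 to 0.20), with an adjusted p of 0.665 and an exact permutation p of 0.0571. mys-2 stood at -0.54 without WT Late 2 and at -0.89 without WT Late 3. mys-4 had a log2 fold change of -0.59.

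The other 12 SET-domain genes tested have less defined roles and had a median log2 fold change of -0.18, with 8 below 0 (4 without WT Late 2, 11 without WT Late 3 and 6 with the length trend removed), of which set-14 and set-15 lay at 0.15 and 0.19 after quantile normalization. set-19 (chromosome X, 5675246 to 5680225) had 0.759, 0.950, 1.06 and 0.965 rescaled FPKM in WT Late, against 1.26, 1.67 and 1.5 in WT. Its groups did not overlap, although its log2 fold change was small. limma gave set-19 a log2 fold change of -0.46 (95% interval -1.39 to 0.47) at an adjusted p of 0.803, and the exact permutation p was 0.0286. set-19 stood at -0.46 without WT Late 2 and at -0.50 without WT Late 3. On the deposited coordinates 123 bases separate set-19 from set-20, both on the minus strand. The groups of set-20 overlapped, with a log2 fold change of 0.22. set-27 had 2.27, 4.37, 7.44 and 2.93 in WT Late and 6.27, 7.63 and 6.93 in WT, with WT Late 1 and 4 low. For set-27 the log2 fold change was -0.76 (95% interval -1.72 to 0.20), which limma placed at an adjusted p of 0.669 and the exact permutation test at p = 0.143. set-27 stood at -0.80 without WT Late 2 and at -1.04 without WT Late 3. It was called lower (adjusted p = 0.0486, limma) when libraries were weighted by their fit, with WT Late 3 at a weight of 0.194, and 8.02% of tested genes were called in that fit. The others were set-24 at -0.64, set-22 at -0.53, set-23 at -0.38, set-14 at -0.19, set-29 at -0.17, set-15 at -0.02, set-3 at 0.01, set-10 at 0.03 and set-31 at 0.23, none of which passed.

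**Figure D3:**
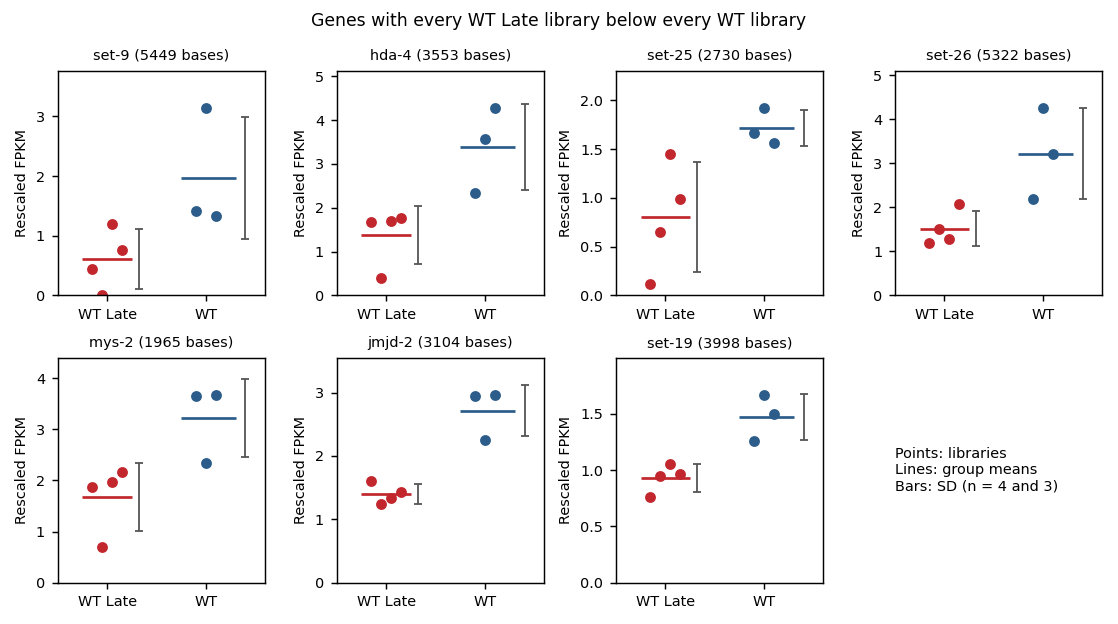
Rescaled FPKM of the 7 chromatin genes whose WT Late and WT libraries do not overlap. Points are libraries, horizontal lines group means and bars SD (n = 4 WT Late, n = 3 WT), each panel on its own axis from 0, with gene length above. The gap between the groups is narrow for mys-2 (WT Late 4 at 2.16 against WT 2 at 2.34) and set-26 (WT Late 4 at 2.08 against WT 1 at 2.18), and the panels of set-9, hda-4 and mys-2 hold a low WT Late 2.

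The lower values followed gene length. The chromatin genes were longer than most, with a median length in the deposited table of 1839 bases against 1263 over all tested genes. All 24 chromatin genes of 2000 bases or more had log2 fold changes below 0, while 15 of the 31 shorter ones did, and the median of the shorter ones was 0.01. The same held for genes in general. Among genes from 2000 to under 4000 bases the median was -0.54 for the 16 chromatin genes and -0.37 for all 2471 tested genes, of which 78.6% lay below 0. From 4000 bases up the median was -0.90 for the 8 chromatin genes and -0.86 for all 572, of which 95.3% lay below 0. Of the 7 genes without overlap 6 were 2000 bases or longer, mys-2 at 1965 bases being the exception. Within length classes the share of chromatin genes lower without overlap was 3.23% against 2.33% of all tested genes under 2000 bases, 25.0% (4 of 16) against 11.2% from 2000 to under 4000 bases, and 25.0% (2 of 8) against 27.6% from 4000 bases up. The lower values also followed level, taken as the mean rescaled FPKM over all libraries. Under 2 rescaled FPKM the median was -0.55 for the 21 chromatin genes, with 17 below 0. Over all 3532 tested genes of that level it was -0.30, with 69.4% below 0. At 5 or more the median was 0.04 for 14 chromatin genes, with 7 below 0. Over all 6547 tested genes there it was 0.01, with 49.4% below 0. Length and level were not tested apart.

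When each library's trend with gene length was removed, an alternative chosen after the data had been seen, the median of the chromatin genes was 0.01 against -0.03 over all tested genes, and 26 of 55 lay below 0. No chromatin gene then lay lower without overlap, against 3.55% of all tested genes, and 1 (jmjd-3.1, 1.82%) lay higher, against 5.13%. The log2 fold change of set-26 became -0.02, that of set-9 -0.35, of hda-4 -0.54, of set-25 -0.50, of jmjd-2 -0.28 and of mys-2 -0.66, while set-19 became 0.20. In the class from 4000 bases up, the median deviation from the WT mean over all tested genes was -1.21, -1.21, -0.32 and -0.81 in WT Late 1 to 4 and -0.41, 0.32 and 0.13 in WT 1 to 3, so the length trend differed between single libraries within both groups. Whether the trend comes from the animals or from the RNA or library preparation cannot be told apart with these values.

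**Figure D4:**
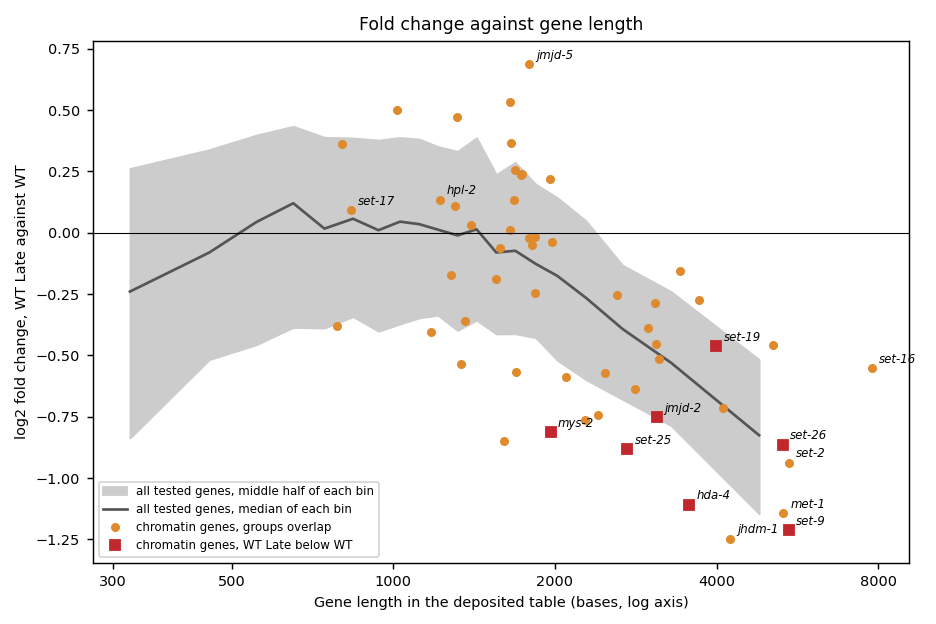
log2 fold change of WT Late against WT (vertical) against gene length in bases (horizontal, log axis). The line and grey band are the median and the central part of the distribution (lower to upper quartile) of all 13194 tested genes in bins of length, and points are the 55 chromatin genes, with red squares for those without overlap. Genes of 2000 bases or more lie increasingly below 0, and most of the 24 chromatin genes of that length lie around the same line.

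Single libraries carried much of the spread. The median deviation of the 55 genes from their WT means was -0.60, -0.44, 0.29 and -0.35 in WT Late 1 to 4, and -0.23, 0.25 and -0.04 in WT 1 to 3, against -0.09, -0.26, 0.07 and -0.10 in WT Late and -0.03, 0.03 and 0.01 in WT over all tested genes. WT Late 3 was therefore the 1 WT Late library with higher values, and WT 2 the high WT library. The chromatin genes took 0.0318%, 0.0300%, 0.133% and 0.0208% of the reads on genes in WT Late 1 to 4, and 0.0375%, 0.0635% and 0.0491% in WT 1 to 3. WT Late 3 was the highest of the 7 libraries for 19 genes (34.5%, against 25.8% of all tested genes) and WT 2 for 18 (32.7%, against 13.9%). For 17 genes the other 3 WT Late libraries all lay below WT, and for these WT Late 3 lay above every WT library in 4, within the WT range in 6 and below in 7. This count used the main scaling and filter, and its share over all tested genes was not counted. In the refit without WT Late 3, with its own scaling and filter, 18.6% of all tested genes lay lower without overlap.

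Without WT Late 3, 18 of 54 genes lay lower without overlap (33.3%, against 18.6% of all tested genes), among them set-2, met-1, met-2, mes-2, mes-4 and mys-1, and 2 lay higher (hda-10 and hpl-1, 3.70%, against 14.2%). None of the 54 was then called, while 5.09% of all tested genes were, and the median was -0.42, against -0.17 over all tested genes. Without both WT Late 2 and WT Late 3, 20 of 54 lay lower without overlap (37.0% against 23.1%) and 3 higher (5.56% against 23.7%). Why WT Late 3 differs was not tested.

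**Figure D5:**
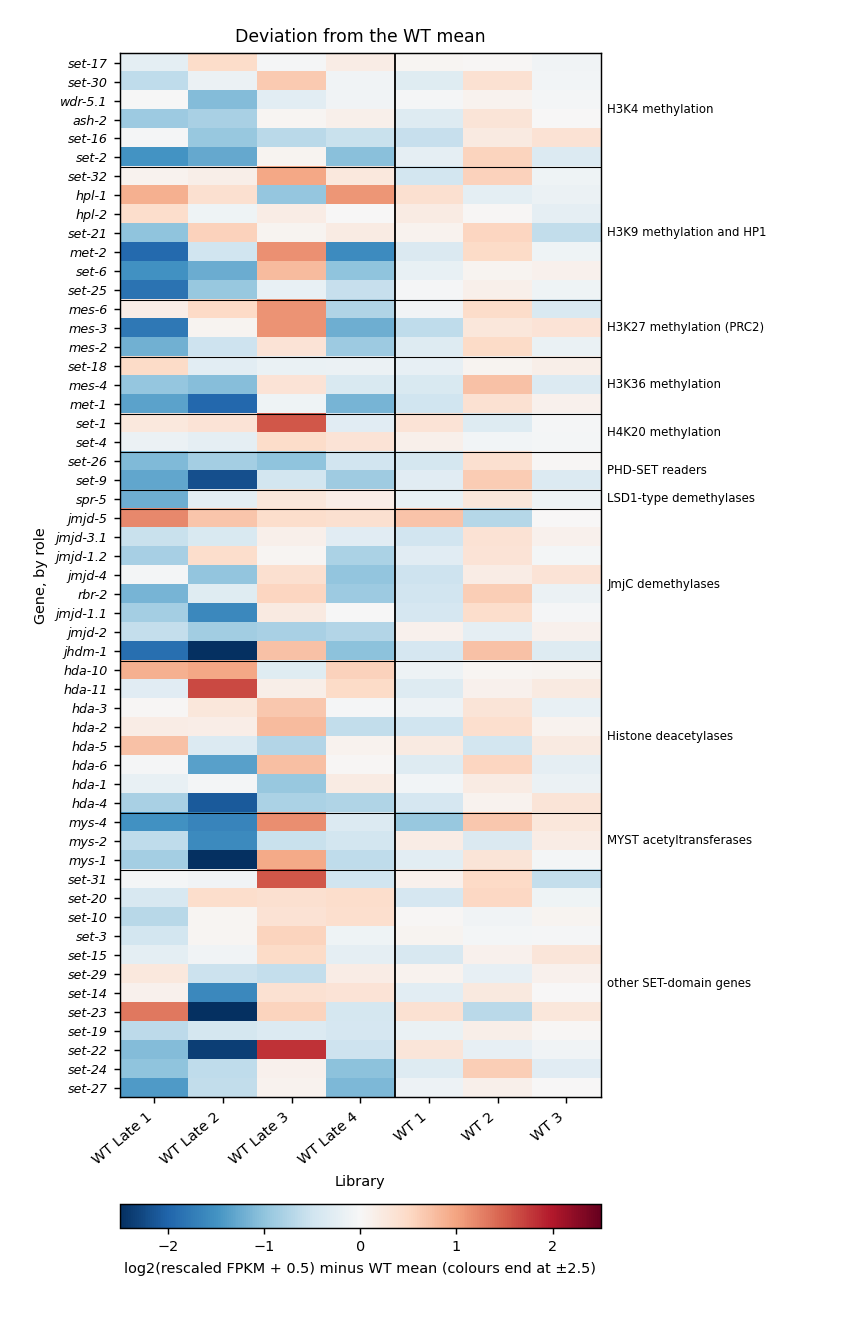
Deviation of each library from the WT mean, in log2(rescaled FPKM + 0.5), for the 55 chromatin genes by role. Columns are the 4 WT Late and 3 WT libraries, blue is below and red above the WT mean, and colours end at 2.5 on either side. WT Late 1, 2 and 4 are mostly blue (medians of -0.60, -0.44 and -0.35), while WT Late 3 is mostly red (median 0.29).

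The 12 genes that did not pass the filter were jmjd-3.2, jmjd-3.3, lsd-1, mes-1, set-5, set-8, set-11, set-12, set-13, set-28, set-33 and utx-1. Their highest FPKM in any library ran from 0 for set-8 and set-33 to 1.44 for utx-1, with 1.13 for set-5 and 0.725 for set-11, the other 7 genes lying at or under 0.502. mes-1 encodes a receptor tyrosine kinase-like protein of early embryos and is a chromatin factor by name only. Of the 16 chromatin genes on the X chromosome 9 did not pass, against 3 of the 51 on autosomes, while 38.1% of X-linked and 36.2% of autosomal protein-coding genes did not pass. The 7 X-linked genes tested had a median log2 fold change of -0.27, against -0.18 over all tested X-linked genes. For 12 tested genes a protein-coding gene lies on the opposite strand of the same stretch in the annotation (ash-2, hda-2, hda-6, mys-1, rbr-2, set-6, set-10, set-22, set-24, set-25, set-27 and set-31), and since the use of strand in counting was not stated their reads may include those of the partner.

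The partners of these enzymes gave a similar picture. Of 72 named partner genes 70 were in the table by that name and 65 were tested, and none was called, against 0.849% of all tested genes. Their median log2 fold change was -0.32, against -0.13 over all tested genes. Of the 65, 45 lay below 0, and of all tested genes 58.4% did. The length of the partner genes was not taken into account in these values. Without overlap 5 lay lower (bet-2, cbp-1, dot-1.1, nurf-1 and zfp-1, 7.69% against 5.09% of all tested genes) and 3 higher (cbp-2, lin-37 and sir-2.2, 4.62% against 4.67%). Nuclear RNAi genes, whose products guide H3K9 methylation to targets of small RNAs, had a median of -0.81 with 6 of 6 below 0, and their summed level was 7.08, 8.88, 51.3 and 14.1 rescaled FPKM in WT Late 1 to 4, against 20.4, 40.9 and 25.98 in WT 1 to 3. WT Late 3 was above all WT libraries there and the other WT Late libraries below them. Bromodomain and remodelling genes had a median of -0.68 with 7 of 7 below 0, and the CoREST, SIN3 and MRG15 genes, which carry deacetylases and demethylases to chromatin, one of -0.76 with 6 of 7 below 0. The H3K9 readers and nuclear periphery genes had a median of -0.33 (5 of 9 below 0), the PRC1-like, DOT1-type and arginine methyltransferases -0.43 (5 of 8), the Mi-2/NuRD and DREAM genes -0.25 (9 of 15) and the COMPASS partners -0.09 (5 of 6). Acetyltransferases outside the MYST family and sirtuins lay the other way at 0.37, with 2 of 7 below 0. In that list cbp-1, the p300/CBP homolog, had 1.03, 0.719, 2.42 and 1.83 rescaled FPKM in WT Late and 2.76, 5.07 and 4.56 in WT, without overlap (log2 fold change -1.26, adjusted p = 0.415 in limma). Its paralog cbp-2 had 3.78, 8.53, 8.76 and 4.71 in WT Late and 1.94, 3.77 and 2.57 in WT, also without overlap but higher (log2 fold change 1.05, adjusted p = 0.498 in limma). In the Mi-2/NuRD list let-418, the Mi-2 remodeller, had 0.618, 0.289, 4.22 and 1.73 in WT Late and 3.29, 7.37 and 3.99 in WT, and its groups overlapped (log2 fold change -1.55, adjusted p = 0.448 in limma).

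Every list of tissue markers was detected in every library, and its level moved between libraries. The 14 germline markers had a median log2 fold change of -0.57, with 13 below 0 and none called, and summed to 119.4 to 280.4 rescaled FPKM in the WT Late libraries, against 232 to 457 in the WT libraries. The 34 sperm markers tested had a median of -0.44 with 33 below 0, and summed to 2914 to 16513 in WT Late, the lowest being WT Late 3, against 6010 to 12108 in WT. Body wall muscle markers summed to 1327 in WT Late 3 and to 5163 to 6769 in the other WT Late libraries, against 3221 to 5393 in WT. Gene by gene, however, the muscle markers had a median log2 fold change of -0.28, with 7 of 8 below 0 and none called. Neuron markers summed to 149 in WT Late 3 and 435 to 557 in the other WT Late libraries, against 254 to 336 in WT, and had a median of -0.03. Intestine and hypodermis markers had medians of 0.05 and 0.10, the 1 call among all marker lists being the cuticle collagen dpy-7, higher in WT Late, and pharynx markers one of -1.08 (5 of 5 below 0). In WT Late 2, 2 of the germline, 5 of the sperm, 1 of the muscle, 3 of the neuron and 3 of the pharynx markers were at 0. Of all tested genes 58.4% lay below 0 and 0.849% were called. The length of the marker genes was not taken into account. The part of these markers in the values of the chromatin genes was not tested.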

How the data were processed

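Whole L4 animals were profiled by RNAseq in 4 WT Late and 3 WT libraries. The study's own description gives 3 replicates for this experiment and does not say which WT Late library, if any, it left out, so all 4 were used. The authors extracted total RNA with a Direct-zol kit, sequencing and counting were done by Novogene, and the deposited values are FPKM for 46778 genes, with gene length and coordinates. No aligner, counter, genome build or strand setting is given in the sources used here. Coordinates are printed as deposited, and all 67 chromatin genes overlap their place in WBcel235 (Ensembl) on the same strand, 14 with identical coordinates. Read numbers were recovered from the product of FPKM and length, and all 106461 values above 0 came out whole to within 0.02. Whether PCR copies were removed before counting is not stated. Reads on genes lay between 17553893 and 20961698 per library.

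The deposited FPKM of each library was rescaled by median-of-ratios and transformed as log2(value + 0.5). The filter kept genes that reached 0.5 FPKM in 3 or more libraries. limma 3.58.1 in R 4.3.3 (lmFit, then eBayes with a variance trend) was fitted to these, and Benjamini-Hochberg adjustment ran over all 13194. Calls were made at an adjusted p under 0.05. For single genes an exact permutation test, two-sided, used all 35 ways to label 4 and 3 libraries. The procedure was tested on simulated data.

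The chromatin genes, their roles, the partner lists and the marker lists were chosen with earlier results of these data known. Genes named with library values were those called, those without overlap between groups, and a set of 27 textbook genes. Other genes given with library values were picked after their values were seen. The alternatives changed the scaling (none, or quantile), the pseudocount (0.1 or 1), the filter (none), the variance model (no trend, library weights, or voom with the recovered reads), added the replicate number as a block, or left out each library. Added after the data were seen were removal of WT Late 2 and 3 together, removal of each library's length trend (lowess, span 0.3) and the count of genes without overlap under several of these.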

Additional observations from a re-analysis of the deposited data

Results flagged for a closer look

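Among the 4 WT Late libraries 68 values were tested for a single library far from the others, by Dixon's ratio of the gap to the whole range at its 95% critical value, and 8 passed, 5 of them chromatin genes among the 55 tested. Chance alone flags about 1 group in 20. For 3 of the genes WT Late 2 was the low library: hda-4 (ratio 0.959, 0.392 rescaled FPKM in WT Late 2), set-14 (0.857, 0.366 rescaled FPKM) and mys-2 (0.854, 0.708 rescaled FPKM). In WT Late 1, set-20 was low (0.963, 0.571 rescaled FPKM) and set-18 high (0.836, 9.66 rescaled FPKM). Of the library measures, the share of reads on the 67 chromatin genes stood apart in WT Late 3 (0.902, 0.133% of reads), the number of tested chromatin genes with 0 reads in WT Late 2 (0.875, 8 genes), and the total of reads on genes in WT Late 1 (0.839, 20961698 reads). Across the genome WT Late 2 had a read on 11069 genes, fewer than the 13194 tested. The causes were not tested.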

How the results depend on the processing

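No chromatin gene was called in the main comparison or in any alternative other than library weights (1 lower, set-27, adjusted p = 0.0486, limma) and removal of WT Late 2 and 3 together (1 lower, met-2, adjusted p = 0.0341, limma). Over all genes the calls were 42 higher and 9 lower with no filter, 500 and 558 with library weights and 468 and 373 without both WT Late 2 and 3. Leaving out 1 library gave 23 to 361 higher and 5 to 282 lower genes, 7 to 18 chromatin genes lower (12.7% to 33.3%, against 6.05% to 18.6% of all tested genes) and 0 to 2 higher (0% to 3.70%, against 5.4% to 14.2%) without overlap, and medians of -0.42 to -0.16 for the chromatin genes. The highest counts came without WT Late 3 and the lowest calls without WT 1. Genes without overlap numbered 3 lower and 1 higher as deposited (5.45% and 1.82%, against 4.39% and 5.34% of all tested genes), 1 higher after quantile normalization (1.82% against 5.32%), 20 lower and 3 higher without both libraries (37.0% and 5.56%, against 23.1% and 23.7%) and 0 lower and 1 higher with the length trend removed (0% and 1.82%, against 3.55% and 5.13%), when the median was 0.0106.

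The replicate numbers gave no clear pairing of the libraries (correlations of same-numbered deviations 0.24, -0.09 and -0.18, and not every library correlated best with its own number). So few correlations cannot show whether libraries were handled in pairs. With the number as a replicate block 67 genes were higher and 32 lower, 0 of them chromatin genes, and set-18 lay at 0.02, set-15 at 0.05 and set-10 at -0.10.

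The log2 fold change of a gene turned in sign in 42 of 604 values under alternatives other than single libraries left out, and in 38 of 382 with single libraries left out. As deposited set-15 lay at 0.01, and with voom at 0.09. After quantile normalization hda-6 lay at 0.06, set-14 at 0.15, set-15 at 0.19 and set-21 at 0.23. With library weights hda-5 lay at 0.25, set-29 at 0.07, set-18 at 0.13, set-23 at 0.07, set-3 at -0.22, hda-2 at -0.06 and set-10 at -0.19. Without both WT Late 2 and 3 the values were 0.07 for hda-1, 0.01 for wdr-5.1, 0.47 for hda-5, 0.29 for set-29, 0.24 for set-18, 0.05 for hda-6, 0.49 for set-23, -0.23 for set-3, 0.28 for set-14, -0.21 for set-31, -0.16 for hda-2, -0.25 for mes-6 and -0.09 for set-10. With the length trend removed they were 0.05 for set-30, 0.07 for set-18, 0.18 for jmjd-1.2, 0.39 for hda-6, 0.10 for spr-5, 0.01 for mes-3, 0.06 for ash-2, 0.36 for rbr-2, 0.09 for set-15, 0.53 for set-16, 0.33 for jmjd-3.1, 0.20 for set-19 and 0.12 for set-21. With single libraries left out 17 genes changed sign: hda-2 ranged from -0.12 to 0.38, hda-5 from -0.33 to 0.16, hda-6 from -0.45 to 0.26, mes-6 from -0.03 to 0.60, set-10 from -0.10 to 0.27, set-14 from -0.38 to 0.29, set-15 from -0.22 to 0.13, set-17 from -0.02 to 0.20, set-18 from -0.19 to 0.07, set-21 from -0.35 to 0.29, set-22 from -1.29 to 0.08, set-23 from -0.95 to 0.48, set-3 from -0.17 to 0.16, set-30 from -0.29 to 0.14, set-31 from -0.21 to 0.48, set-4 from -0.01 to 0.23 and spr-5 from -0.43 to 0.06. The causes were not tested.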
